A study of Mus musculus with 4 samples.

Results

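Smooth muscle type contractile genes that respond to the serum response factor SRF were followed in the ventricles of newborn mice whose cardiomyocytes were to lose β-catenin. The set holds 10 of the 53465 genes in the files, taken by name: the factors Srf and Myocd and the contractile or actin-binding genes Tagln, Cnn1, Cnn2, Myl9, Tpm2, Smtn, Actn1 and Flna. All 10 passed the filter on low counts and are among the 18157 genes tested. They are known SRF and myocardin factors and smooth muscle genes, and were chosen by name with their measured counts and fold changes between knockout and control in view. Their levels in that comparison are therefore given as a description, without a test.

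The 4 libraries were made from hearts at postnatal day 1. Knockout-labelled mice (2 libraries) had the genotype Ctnnb1floxP/floxP with alphaMHC-Cre+, and control mice (2 libraries) had Ctnnb1floxP/floxP with alphaMHC-Cre-. Floxed Ctnnb1, the gene of the junction protein and Wnt co-activator β-catenin, is thus shared by both groups. The alphaMHC promoter drives Cre in cardiomyocytes, so vessel smooth muscle, fibroblasts and endothelium of the same hearts are not its target, and the effect of the Cre transgene cannot be told apart from that of the deletion. The labels do not state whether the samples are separate animals, and the errors given here rest on these samples only.

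SRF binds a short DNA element, the CArG box, in genes of the actin cytoskeleton and of striated and smooth muscle. Its partner myocardin (Myocd), found in heart and smooth muscle, turns on contractile genes, while the related factors Mrtfa and Mrtfb follow the state of actin in the cell. In the developing heart cardiomyocytes transiently express several smooth muscle contractile genes, which are also the standing program of the vessel wall.

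RefSeq promoter sequences on GRCm38.p6, from 250 bases before to 50 bases after a gene start, were matched by symbol for 8 of the 10 genes. Of these 8, Srf, Myl9 and Cnn2 (37.5%) hold a CArG box in this window, counted on both strands, against 1.81% of 27025 genes with a promoter sequence. The genes were picked as known SRF factors and smooth muscle genes, so this share bears on no result here. The sequences are printed 5′ to 3′ on the strand of the gene with the CArG boxes in capitals. They show where SRF's element lies relative to the start. Myl9 and Cnn2 stood higher in the knockout-labelled hearts, but Srf overlapped between the groups, and Tpm2, also higher, has no box in its window.
Srf, chr17:46556113-46556412, minus strand: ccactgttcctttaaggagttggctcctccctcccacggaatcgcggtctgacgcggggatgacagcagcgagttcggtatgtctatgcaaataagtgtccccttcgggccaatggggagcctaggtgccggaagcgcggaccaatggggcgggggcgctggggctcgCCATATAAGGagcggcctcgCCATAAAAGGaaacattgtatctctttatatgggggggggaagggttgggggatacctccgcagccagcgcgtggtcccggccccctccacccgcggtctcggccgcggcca
Myl9, chr2:156775214-156775513, plus strand: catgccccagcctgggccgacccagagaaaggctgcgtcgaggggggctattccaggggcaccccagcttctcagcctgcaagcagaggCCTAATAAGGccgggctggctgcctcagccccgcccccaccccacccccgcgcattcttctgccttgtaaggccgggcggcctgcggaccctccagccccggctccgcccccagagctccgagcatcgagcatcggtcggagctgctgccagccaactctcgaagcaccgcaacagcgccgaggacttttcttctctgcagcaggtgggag
Cnn2, chr10:79988350-79988649, plus strand: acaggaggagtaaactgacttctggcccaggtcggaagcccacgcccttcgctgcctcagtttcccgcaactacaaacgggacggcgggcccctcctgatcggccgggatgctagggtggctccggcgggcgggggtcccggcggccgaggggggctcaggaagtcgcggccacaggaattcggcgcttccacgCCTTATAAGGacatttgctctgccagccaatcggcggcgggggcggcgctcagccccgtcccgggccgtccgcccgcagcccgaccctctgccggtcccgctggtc
The 2 boxes of Srf, CCATATAAGG and CCATAAAAGG, begin 82 and 62 bases before the start. Myl9 has CCTAATAAGG from 161 bases before the start, and Cnn2 has CCTTATAAGG from 56 bases before it. The windows of Cnn1, Tpm2, Smtn, Actn1 and Flna hold no such box, which says nothing about elements outside them.

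The RefSeq promoter window of Smtn is also shown, as that of the contractile gene that stood lower in both knockout-labelled hearts, with its MCAT element in capitals.
Smtn, chr11:3539243-3539542, minus strand: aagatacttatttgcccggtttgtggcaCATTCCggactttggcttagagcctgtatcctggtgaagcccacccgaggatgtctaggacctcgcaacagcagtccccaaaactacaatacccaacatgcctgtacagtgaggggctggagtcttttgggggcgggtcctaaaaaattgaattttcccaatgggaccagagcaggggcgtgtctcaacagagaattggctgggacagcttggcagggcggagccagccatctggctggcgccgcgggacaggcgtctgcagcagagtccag
The MCAT element, CATTCC on either strand, is bound by TEAD factors. It begins 222 bases before the RefSeq start of Smtn and 146 bases before that of Flna. Both windows lie inside the minus-strand gene spans of GENCODE release M21, which begin at 3540612 for Smtn and 74249820 for Flna. The starts used here are therefore internal to those spans. Smtn and Flna are 2 of the 8 genes, and 16.6% of all genes with a promoter sequence hold the element.

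Depth was high in every library: 45651797 and 34027143 gene counts in knockout-labelled hearts 1 and 2, against 43288936 and 44624578 in controls 1 and 2. Whole-gene Ctnnb1 was at 526 and 460 CPM (counts scaled to library size) in the knockout-labelled hearts and at 408 and 434 CPM in the controls, and its log2 fold change was 0.23 ± 0.20 (SE), with a Benjamini-Hochberg adjusted p of 0.532 in the quasi-likelihood test of edgeR. A count over the whole gene includes exons that Cre does not remove and RNA of cells without Cre, so it does not check the labels, and all directions below are those of the libraries labelled knockout. Cardiomyocyte markers were abundant in all 4 libraries (7 genes, 66237 and 79755 against 50369 and 48384 CPM in sum). Smooth muscle was also represented, since Myh11, the smooth muscle myosin heavy chain, was detected in every library. Mitochondrial genes took 10.2% and 14.4% of gene counts in the knockout-labelled hearts and 5.25% and 7.65% in the controls. T cell transcripts were by far highest in control 1, with 7 markers summing to 247 CPM, against 5.29 CPM in control 2. The sums were 1.60 and 1.28 CPM in knockout-labelled hearts 1 and 2. Of the 6 markers tested, 6 had both knockout-labelled libraries below both controls (29.7% of all genes). Xist, expressed from the inactive X chromosome, was at 602 CPM in knockout-labelled heart 2 and at most 0.327 CPM in the other libraries. Kdm5d, on the Y chromosome, was at 0.00 CPM in knockout-labelled heart 2. It was at 37.4 CPM in knockout-labelled heart 1 and at 41.3 and 42.4 CPM in the controls. By these genes knockout-labelled heart 2 was female and the others male. Sex was thus not balanced between the groups, and its part in the values was not tested.

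The 10 genes differed in direction. Myl9 stood 4.41-fold higher in the knockout-labelled hearts and Cnn2 and Tpm2 somewhat higher, Smtn stood lower, and the factors Srf and Myocd overlapped between the groups. All CPM are scaled by TMM (edgeR's library scaling). Means carry the SD of the pair of libraries, and log2 fold changes, knockout-labelled over control, carry their SE. That SE comes from the edgeR fit, which shares information on spread across genes. It is therefore not the spread of a gene's own libraries alone. Gene positions are those of GENCODE release M21 on GRCm38.

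**Figure D1:**
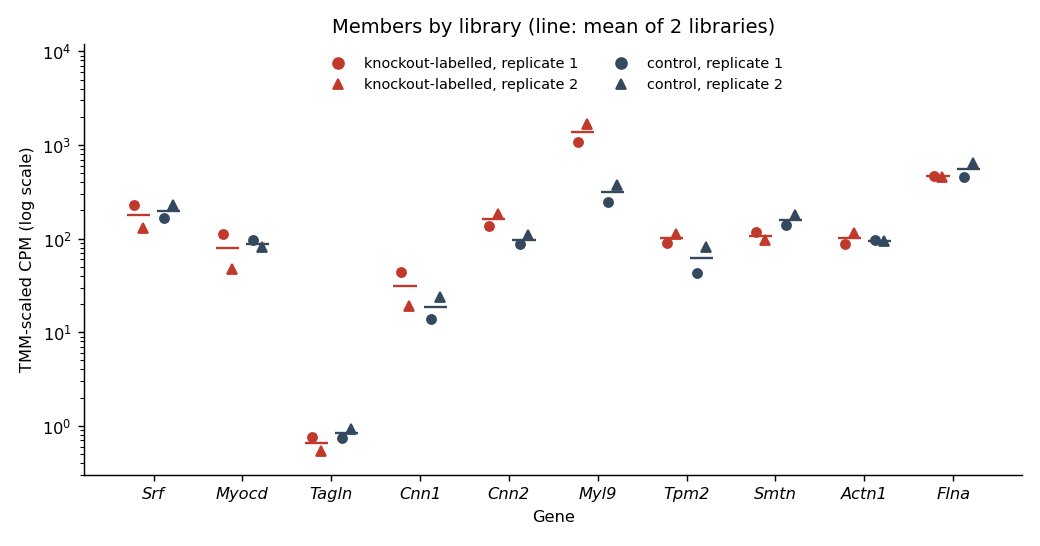
TMM-scaled CPM of the 10 genes on a log axis, with 1 symbol per library and a line at the mean of each group of 2. Only Cnn2, Myl9 and Tpm2 have both knockout-labelled libraries above both controls, and only Smtn has both below.

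Srf (chromosome 17, 46548329 to 46556175), the DNA-binding factor itself, was at 226 and 130 CPM in knockout-labelled hearts 1 and 2, against 168 and 227 CPM in controls 1 and 2. The knockout-labelled pair spans the control pair from below to about its upper end, and the log2 fold change was -0.15 ± 0.31. Its sign turned without control 2 (0.09), without knockout-labelled 2 (0.20) and once trends with GC content and transcript length were removed (0.25).

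Myocd (chromosome 11, 65176561 to 65269989), the myocardin co-activator, was at 112 and 47.5 CPM in the knockout-labelled hearts and at 95.6 and 81.4 CPM in the controls. The knockout-labelled libraries held both the highest and the lowest value. Accordingly the log2 fold change of -0.15 ± 0.39 became 0.35 without knockout-labelled 2 and -0.84 without knockout-labelled 1.

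Myl9 (chromosome 2, 156775420 to 156781658), the regulatory light chain of smooth muscle and non-muscle myosin, was the most abundant of the 10 per exon length in every library. It was at 1073 and 1690 CPM in the knockout-labelled hearts, against 249 and 377 CPM in the controls, means of 1381 ± 437 and 313 ± 90.5 CPM (SD, n = 2 each). Even the lower knockout-labelled library was well above the higher control. The log2 fold change was 2.14 ± 0.34, a 4.41-fold higher level, and ranged from 1.78 to 2.48 when single libraries were left out.

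The calponins bind actin and myosin and dampen the contractile ATPase. Cnn1 (chromosome 9, 22099216 to 22109630), the form of mature smooth muscle, was at 43.9 and 19.0 CPM in the knockout-labelled hearts and at 13.7 and 23.9 CPM in the controls. Its groups overlap, and the log2 fold change of 0.74 ± 0.45 was 0.06 without knockout-labelled 1 and 1.23 without knockout-labelled 2. Cnn2 (chromosome 10, 79988584 to 79996062), the more widely expressed form, was at 138 and 185 CPM against 86.6 and 108 CPM in the controls. Here both knockout-labelled hearts lay above both controls, with a log2 fold change of 0.73 ± 0.22 that stayed between 0.51 and 0.98 when single libraries were left out.

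Tpm2 (chromosome 4, 43514711 to 43523765), β-tropomyosin, which lies along the actin filament, was at 89.7 and 112 CPM in the knockout-labelled hearts, against 42.7 and 81.5 CPM in the controls. The groups did not overlap, but control 2 came close to knockout-labelled 1. The log2 fold change of 0.70 ± 0.32 was 0.31 without control 1 and 1.25 without control 2.

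Smtn (chromosome 11, 3517523 to 3540612), smoothelin, an actin-associated protein of contractile smooth muscle, was at 117 and 95.5 CPM in the knockout-labelled hearts and at 140 and 180 CPM in the controls. It is the one gene of the set whose knockout-labelled libraries were both below the controls, at a log2 fold change of -0.59 ± 0.21. Removing the trends with GC content and length gave -0.20, with overlapping groups. Exons of genes on the other strand cover 16.3% of its exonic bases, and the strand setting of the counting is not given in the sources used here, so its count carries that uncertainty.

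Tagln (chromosome 9, 45929619 to 45936058), transgelin or SM22α, a classical SRF target and smooth muscle marker, had next to no countable reads. It had 34 and 16 counts in the knockout-labelled hearts and 35 and 45 counts in the controls, or 0.541 to 0.919 CPM over the 4 libraries. Exons annotated on the opposite strand, mostly those of Gm48529 (chromosome 9, 45930112 to 45933738), cover 67.9% of Tagln's exonic bases. Gm48529 had similarly few counts, 36 and 19 in the knockout-labelled hearts and 38 and 57 in the controls. Reads that overlap more than 1 gene were set aside as ambiguous in these files (4.28% and 3.90% of counted reads in the knockout-labelled hearts, 4.84% and 4.43% in the controls), and how many came from Tagln was not tested. The level of Tagln is therefore uncertain and its log2 fold change of -0.34 ± 0.41 is not read further.

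Both large crosslinkers of actin overlapped with the controls. Actn1 (chromosome 12, 80167547 to 80260371), non-muscle α-actinin of stress fibres, was at 88.5 and 115 CPM in the knockout-labelled hearts and at 96.1 and 93.9 CPM in the controls, a log2 fold change of 0.10 ± 0.19. Both knockout-labelled values bracket the controls, and scaling by library totals alone, which lowers all genes by a median of 0.24, gave -0.15. Flna (X chromosome, 74223461 to 74249820), filamin A, which ties actin networks to the membrane, was at 470 and 460 CPM against 455 and 648 CPM in the controls. Only control 2 stood apart, and the log2 fold change of -0.25 ± 0.24 was 0.04 without that library. Flna is X-linked and Xist was high in knockout-labelled 2 only. The part of that difference in the Flna values was not tested.

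Of the 10 genes, 3 had both knockout-labelled libraries above both controls and 1 had both below. Over all genes tested the shares were 26.5% above and 29.7% below. The median log2 fold change of the 10 was -0.03, beside -0.02 for all genes, with a range from -0.59 to 2.14. Test calls are not given for the 10. At an adjusted p under 0.05 edgeR called 0.0110% of all genes higher and 0.00% lower (11.8% and 11.2% unadjusted). DESeq2 called 5.85% of all genes higher and 4.65% lower. By limma-voom 0.00% were called in either direction (11.5% higher and 10.7% lower unadjusted). As the 10 genes were chosen with this comparison known, nothing is read from their counts above and below.

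**Figure D2:**
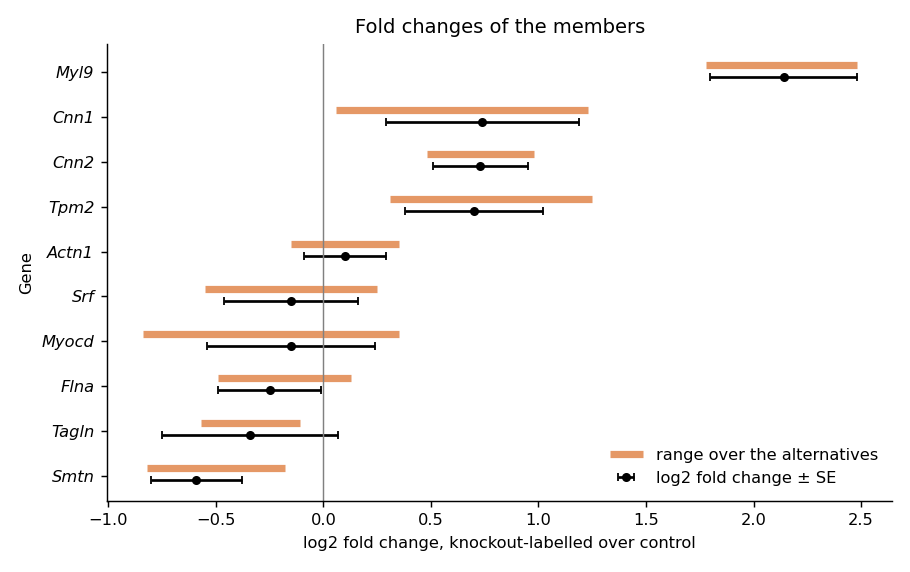
Log2 fold change of each gene, knockout-labelled over control, with its SE (black), and the range over 15 alternative scalings, filters, tests and left-out libraries, 14 for Tagln (orange). The ranges of Myl9, Cnn1, Cnn2 and Tpm2 lie above 0 and those of Tagln and Smtn below it, while those of Actn1, Srf, Myocd and Flna cross it.

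Ratios within a library do not depend on scaling. Per exon length, Myl9 was at 34.6 and 66.7 times Smtn in the knockout-labelled hearts, against 6.73 and 7.92 times in the controls, and at 18.5 and 29.7 times Flna against 4.43 and 4.71 times. The proportions of these genes thus differed between the 2 groups, but the genes were chosen with their fold changes in view. Whether their RNA came from the same cells was not tested. The ratio of Myocd to Srf, 0.222 and 0.164 against 0.256 and 0.161, overlapped between the groups. So did that of Cnn2 to Cnn1, at 3.50 and 10.8 against 7.02 and 5.04.

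Several of the genes varied between replicates more than most expressed genes. Over genes with a mean of at least 10 CPM the absolute log2 ratio between the 2 libraries of a group had a median of 0.27 and a 90th percentile of 0.75 in the knockout-labelled hearts (9630 genes), and of 0.15 and 0.41 in the controls (9633 genes). In the knockout-labelled pair 3 of the 9 genes other than Tagln exceeded that percentile: Myocd (1.23), Cnn1 (1.21) and Srf (0.80), all higher in heart 1. In the control pair 5 of 9 exceeded theirs: Tpm2 (0.93), Cnn1 (0.80), Myl9 (0.60), Flna (0.51) and Srf (0.44), all higher in control 2. A spread of this size limits what 2 libraries a group can show for each of these genes, Tpm2 and Myl9 included.

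**Figure D3:**
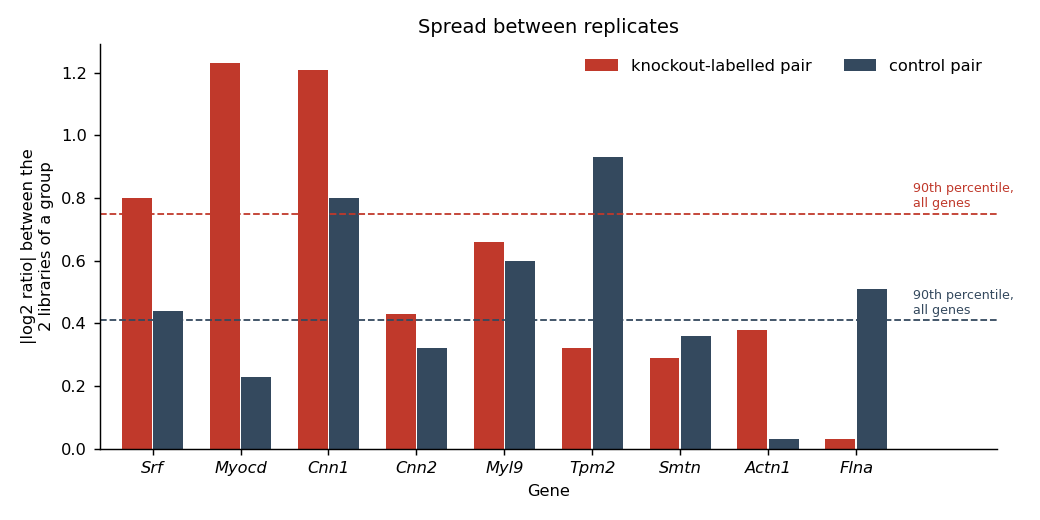
Absolute log2 ratio of TMM-scaled CPM between the 2 libraries of each group, for the 9 genes other than Tagln. Dashed lines mark the 90th percentile over all genes with a mean of at least 10 CPM, and Myocd, Cnn1 and Srf pass it in the knockout-labelled pair.

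Levels of different genes were compared per kilobase of exon, as TMM-scaled RPKM. In the knockout-labelled hearts the order of the means was Myl9 (1189), Cnn2 (65.7), Srf (61.7), Flna (49.5), Tpm2 (34.7), Smtn (24.3), Actn1 (18.4), Myocd (12.4), Cnn1 (11.5) and Tagln (0.329 RPKM). The neighbours Cnn2 and Srf, Srf and Flna, Actn1 and Myocd, and Myocd and Cnn1 had overlapping libraries. In the controls the order was Myl9 (270), Srf (68.4), Flna (58.7), Cnn2 (39.6), Smtn (36.5), Tpm2 (21.3), Actn1 (17.2), Myocd (13.8), Cnn1 (6.88) and Tagln (0.420 RPKM), with overlaps of Srf with Flna, Cnn2 with Smtn and Tpm2 with Actn1. Srf, a transcription factor gene, was thus within the range of the contractile genes. Cnn2 overlapped with Srf and lay above Flna in the knockout-labelled hearts, and lay below both in the controls.

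Each contractile gene belongs to a family with forms in striated muscle or other cells as well, and these were listed after the values of the 10 genes were seen. Among the regulatory light chains, the non-muscle forms were nearer to the controls than Myl9: Myl12a was at 150 and 214 RPKM against 119 and 129 RPKM (log2 fold change 0.55 ± 0.24) and Myl12b at 22.7 and 46.0 against 27.7 and 27.1 RPKM (0.33 ± 0.33), with edgeR adjusted p of 0.244 and 0.587. Myl12a and Myl12b are close copies, so reads they share are uncertain. In the tropomyosin family Tpm1, a gene of both striated and smooth muscle, far exceeded Tpm2. It was at 1103 and 1703 RPKM against 634 and 647 RPKM in the controls (1.13 ± 0.36, edgeR adjusted p = 0.146). Cytoskeletal Tpm4 was at 81.5 and 147 RPKM against 43.6 and 71.4 RPKM, and Tpm3 was level at 18.0 and 16.0 against 17.2 and 17.1 RPKM.

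Cnn3, the third calponin, was at 55.4 and 59.3 RPKM against 44.6 and 48.3 RPKM in the controls, above Cnn1 in every library. Tagln2, the transgelin of non-muscle cells, was measurable where Tagln was not, at 80.0 and 149 RPKM against 61.1 and 70.6 RPKM (log2 fold change 0.80 ± 0.31, edgeR adjusted p = 0.202). Mrtfa and Mrtfb, at 3.31 and 2.80 and at 4.92 and 3.62 RPKM in the knockout-labelled hearts, were below both controls (3.65 and 3.41 for Mrtfa, 5.79 and 5.67 for Mrtfb), and Myocd exceeded them in every library. Among the crosslinkers, sarcomeric Actn2 (524 and 814 against 505 and 445 RPKM) was far more abundant than Actn1, while Flnc, the muscle filamin, was at 43.8 and 34.4 against 43.2 and 45.1 RPKM. None of these relatives passed in edgeR at an adjusted p under 0.05. By DESeq2 Tpm1 passed (adjusted p = 0.000942), and by limma-voom it did not (adjusted p = 0.124).

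**Figure D4:**
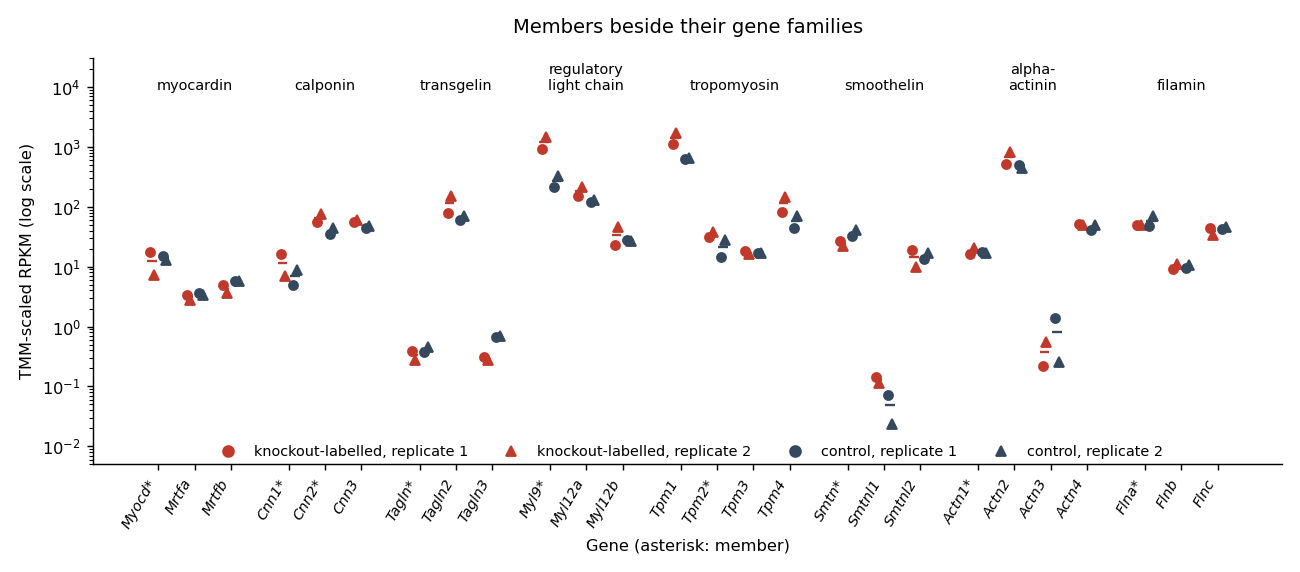
TMM-scaled RPKM on a log axis of the 8 contractile or actin-binding genes and Myocd (asterisks) beside other forms of their families, with 1 symbol per library and a line at each group mean. Myl9 shows the widest gap between the groups, and Tagln lies far below Tagln2 in every library.

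The rest of the SRF pathway was followed in 5 fixed lists with 78 distinct genes, all of them tested. At an adjusted p under 0.05 edgeR called 0 of the 78, and unadjusted it had 13 higher and 6 lower. By DESeq2 8 were higher and 2 lower, and limma-voom called 0. The groups did not overlap for 29 of the 78 with knockout-labelled values above and for 15 with them below. Over all genes tested the shares were 26.5% above and 29.7% below, 11.8% higher and 11.2% lower unadjusted in edgeR, and 5.85% higher and 4.65% lower by DESeq2. The median log2 fold change was 0.18, beside -0.02 for all genes, and with library totals alone it was -0.06, beside -0.26 for all genes.

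Among 22 other smooth muscle contractile genes, edgeR called 0 (unadjusted, 5 higher and 1 lower), DESeq2 4 higher and limma-voom 0. The 4 were Acta2 (DESeq2 adjusted p = 2.67e-09), Tpm1 (0.000942), Nexn (0.0356) and Csrp1 (0.0371). The median log2 fold change of the 22 was 0.23. Acta2, smooth muscle α-actin and the thin-filament partner of Myl9's myosin, was at 1374 and 1136 CPM in the knockout-labelled hearts, against 173 and 332 CPM in the controls. This gap, a log2 fold change of 2.31 ± 0.36 (edgeR adjusted p = 0.0925), is of the same order as that of Myl9. Myh11, the heavy chain that defines differentiated smooth muscle, stood lower, at 20.3 and 17.8 CPM against 27.6 and 32.5 CPM (-0.65 ± 0.19, edgeR adjusted p = 0.132), as Smtn did. Removing the trends with GC content and length gave -0.35 for Myh11 (edgeR adjusted p = 0.295). Acta2 per length was 234 and 220 times Myh11 in the knockout-labelled hearts, against 21.7 and 35.4 times in the controls. Csrp1, a LIM protein of smooth muscle, was at 264 and 248 CPM against 157 and 184 CPM (0.59 ± 0.18, edgeR adjusted p = 0.145). Summed over 7 smooth muscle markers the level was 1505 and 1230 CPM against 286 and 458 CPM, and Acta2 was the largest part of it in every library. Of the 7, 2 had both knockout-labelled libraries above both controls and 2 had both below (26.5% and 29.7% of all genes). Their median log2 fold change was 0.18, so the sum does not stand for the markers as a set. In bulk tissue fewer cells of a type and less RNA per cell cannot be told apart.

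Pericytes and fibroblasts, which also express contractile genes, were followed by their own markers. The 8 pericyte markers summed to 1041 and 858 CPM in the knockout-labelled hearts and 1054 and 1125 CPM in the controls, with 0 of 8 above in both knockout-labelled libraries and 3 of 8 below (26.5% and 29.7% of all genes), and DESeq2 called 1 lower. The 8 fibroblast markers summed to 4619 and 4023 against 2908 and 4540 CPM, with 2 of 8 above and 0 below, and DESeq2 called 0. The 6 epicardial markers summed to 135 and 154 against 122 and 124 CPM, with 1 of 6 above and 0 below. The part of these cells in the values of the 10 genes was not tested.

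Of 15 cofactors and regulators of SRF, edgeR called 0 (unadjusted, 0 higher and 2 lower), DESeq2 1 lower and limma-voom 0. The gene called by DESeq2 was Foxo4 (adjusted p = 0.000499). The median log2 fold change of the 15 was -0.07, and 0.06 without GC content and length trends, beside 0.01 for all genes. Foxo4, a forkhead factor known to repress myocardin activity in smooth muscle, was at 52.9 and 44.4 CPM against 102 and 91.8 CPM (-1.0 ± 0.17, edgeR adjusted p = 0.0925). Cited2, a CBP/p300-binding co-regulator, was at 40.8 and 39.2 CPM against 66.1 and 47.4 CPM (-0.50 ± 0.20, edgeR adjusted p = 0.211). Fhl2, a LIM protein that binds SRF and is itself an SRF target, was at 1051 and 557 CPM against 482 and 465 CPM (0.76 ± 0.33, edgeR adjusted p = 0.235). Its higher value, like those of Srf, Myocd and Cnn1, was that of knockout-labelled heart 1.

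Of 20 actin cytoskeleton targets, edgeR called 0 (unadjusted, 4 higher and 1 lower), DESeq2 1 higher and limma-voom 0. The gene called by DESeq2 was Itgb1 (adjusted p = 0.00817). The median log2 fold change of the 20 was 0.22, and -0.03 with library totals alone, beside -0.26 for all genes. Itgb1, the integrin β1 chain, was at 975 and 998 CPM against 519 and 653 CPM (0.75 ± 0.23, edgeR adjusted p = 0.140). Pdlim5, a PDZ-LIM protein that binds α-actinin, was at 442 and 587 CPM against 314 and 351 CPM (0.63 ± 0.23, edgeR adjusted p = 0.176). Coro1a, an actin regulator of blood cells, was at 5.48 and 7.16 CPM against 61.6 and 8.96 CPM (-2.48 ± 0.83, edgeR adjusted p = 0.159). Its one high value is that of control 1, the library with the most T cell transcripts, whose part in it was not tested.

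SRF acts with ETS partners rather than myocardin at immediate-early genes. Of 9 such genes, edgeR called 0 (unadjusted, 0 higher and 1 lower), DESeq2 1 lower and limma-voom 0, and the median log2 fold change was -0.58. It was -0.21 without GC content and length trends and -0.84 with library totals alone, beside 0.01 and -0.26 for all genes. Egr1, a zinc-finger factor induced within minutes of a stimulus, was at 21.1 and 34.9 CPM against 51.9 and 56.6 CPM (-0.95 ± 0.26, edgeR adjusted p = 0.124). It was the gene called by DESeq2 (adjusted p = 0.0293). Egr3 was at 0.902 and 2.10 CPM against 3.11 and 3.53 CPM (-1.16 ± 0.48, edgeR adjusted p = 0.218). Mcl1, an anti-apoptotic gene of the list, was at 233 and 279 CPM against 209 and 198 CPM (0.33 ± 0.19, edgeR adjusted p = 0.336).

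Of 12 cardiac targets of SRF, edgeR called 0 (unadjusted, 4 higher and 1 lower), DESeq2 3 higher and limma-voom 0, and the median log2 fold change was 0.36. Acta1, skeletal α-actin, was at 117 and 99.1 CPM against 22.3 and 39.1 CPM (1.81 ± 0.29, edgeR adjusted p = 0.0925). Actc1, cardiac α-actin, was at 14102 and 15697 CPM against 6222 and 7447 CPM (1.12 ± 0.35, edgeR adjusted p = 0.144). Tnnc1, cardiac troponin C, was at 2510 and 4117 CPM against 1681 and 1517 CPM (1.05 ± 0.33, edgeR adjusted p = 0.146). The 3 called by DESeq2 were Acta1 (adjusted p = 1.74e-06), Actc1 (1.32e-05) and Tnnc1 (0.00528). Acta1, Actc1 and Acta2 have close coding sequences, so reads they share are uncertain.

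**Figure D5:**
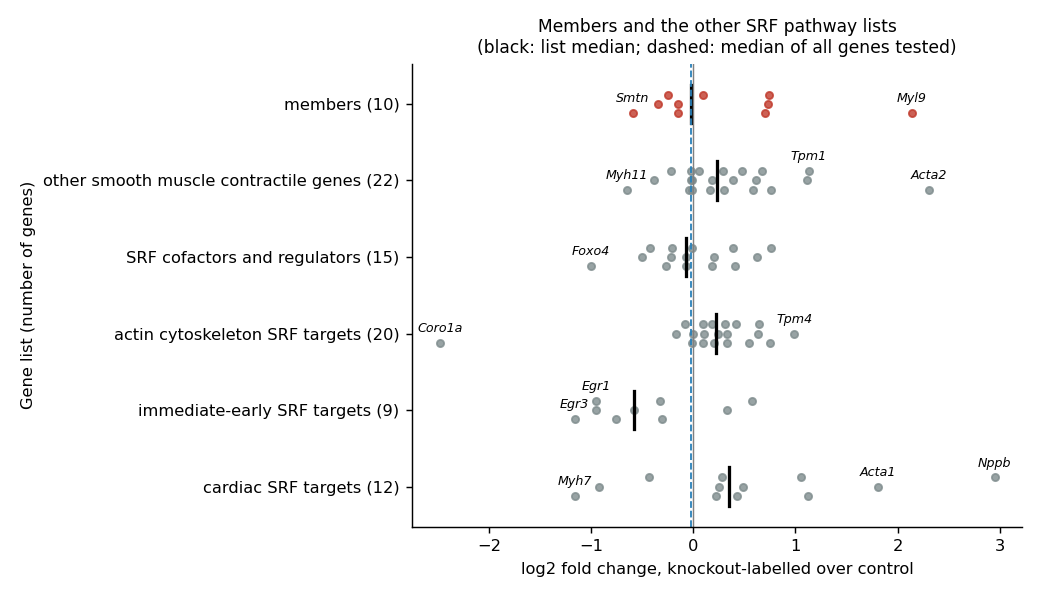
Log2 fold change, knockout-labelled over control, of the 10 genes (red) and of the genes of 5 other SRF pathway lists (grey), with list medians in black and the median of all genes tested dashed. Myl9 and Acta2 stand at the right of their rows and Smtn and Myh11 at the left, and the immediate-early list has the lowest median (-0.58, and -0.21 without GC content and length trends).

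Likeness to the set was measured over the 4 libraries. Centred on each gene's own mean, their median log2 CPM was 0.19 and -0.20 in knockout-labelled hearts 1 and 2 and -0.13 and 0.07 in controls 1 and 2. Of 9428 protein-coding genes with a mean of at least 10 CPM, the 5 nearest to that profile by Euclidean distance over the 4 libraries were Pcmtd1, Nkapd1, Pdgfra, Armcx3 and Nol4l, at distances of 0.0402 to 0.0527. These are genes with almost level values, such as Pdgfra at 63.7 and 48.9 CPM against 51.0 and 60.5 CPM. In the authors' deposited table the log2 fold changes, knockout over control, were 2.163 for Myl9, 0.76 for Cnn1, 0.75 for Cnn2, 0.72 for Tpm2 and -0.57 for Smtn. They were -0.129 for Srf, -0.133 for Myocd, -0.324 for Tagln, 0.121 for Actn1 and -0.225 for Flna. That table holds the counts of these same 4 libraries, so it is no independent measurement.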

How the data were processed

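Ventricle RNA of mice at postnatal day 1 was sequenced in 2 knockout-labelled and 2 control libraries, grouped by title and genotype. Per the submitters' processing notes, the authors used bcl2fastq 2.16.0.10, FastQC 0.11.5, STAR 2.5.3a, GRCm38 and HTSeq 0.6.1. Neither the strand setting nor the annotation release is given in the sources used here. The deposited counts are whole reads per gene without scaling. The log2 fold changes and the adjusted p-values of the series table were deposited by the authors, whose notes name DESeq2 1.18, and of these only the fold changes were used. Its 4 columns of normalized values per sample were not used.

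The members and lists were chosen with earlier results of these data known. Identifiers were matched to GENCODE release M21 (53360 of 53465). The 5 summary rows were left out of library sizes and tests. Multiply mapped reads were 23.9% and 29.7% of counted reads in the knockout-labelled libraries, against 19.4% and 21.0% in the controls. Counts were fitted in R 4.3.3 with edgeR 4.0.16 (filterByExpr, TMM, quasi-likelihood test, Benjamini-Hochberg over 18157 genes, threshold 0.05). CPM used library totals times TMM factors (0.972 and 0.870 for knockout-labelled, 1.08 and 1.10 for control libraries), and RPKM divides CPM by kilobases of merged exons. Named were the 10 members, Ctnnb1, Myh11, Acta2, the 3 genes of smallest edgeR p from each pathway list and the 5 genes of most similar profile. Other genes named were chosen after their values were seen. Alternatives were other scalings, filters, DESeq2 1.42.0, limma-voom (limma 3.58.1), a replicate block, removal of GC content and length trends (mgcv) and leaving out each library. The fitting code was tested on simulated data.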

Additional observations from a re-analysis of the deposited data

How the results depend on the processing

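Of the 10 genes, Myl9, Cnn1, Cnn2, Tpm2, Smtn and Tagln kept the sign of their log2 fold change under all alternatives that gave a value (15 each, 14 for Tagln), and Srf, Flna, Myocd and Actn1 changed sign under 4, 3, 2 and 2. The median of the set (-0.03) was -0.26 with library totals alone, 0.30 without GC content and length trends, 0.28 with those trends removed and a replicate block, and from -0.07 to 0.27 when 1 library was left out. Members with every knockout-labelled library above every control (3) numbered 2 with library totals alone, 4 without GC content and length trends (also 4 with the block) and from 3 to 5 with 1 library left out. Those below (1) numbered 4 with library totals alone, 0 without GC content and length trends (also 0 with the block) and from 1 to 4 with 1 library left out. A group of 1 library separates from the other group more easily than a group of 2. The shares over all genes under these alternatives are not given here, so nothing is read from the shifts.

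Over all genes edgeR called 2 higher and 0 lower. The counts were 0 higher for nuclear protein-coding genes only, 313 higher and 241 lower with no filter, 964 and 767 with DESeq2 and 0 higher with limma-voom. They were 9 higher and 9 lower with the replicate block and 3 lower with the block and GC content and length trends removed. With 1 library left out they were 0 to 9 higher and 0 to 30 lower, where the lone library of a group is assumed to vary like the other pair: without control 1 and without knockout-labelled 2 the count was 0 either way, without control 2 it was 0 higher and 30 lower, and without knockout-labelled 1 it was 9 and 6. Pathway list genes called (0 either way) were 2 higher and 1 lower with no filter, 8 and 2 with DESeq2 and 0 to 1 higher with 1 library left out. The cause of these shifts was not tested. Ctnnb1 had a log2 fold change of -0.01 with library totals alone (adjusted p = 0.985 in edgeR), a scaling that moves the median of all genes by -0.24.

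Replicate numbers are shared by the groups, but the labels do not say that they mark a litter or day. Deviations of same-numbered libraries from their group means correlated at -0.116 over 18157 genes, and a crossed block (added after seeing the data) called 501 genes higher and 441 lower, 2 higher and 2 lower in the pathway lists. Counts per gene limit Tagln, at 45 or fewer reads per library.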
